A study of Mus musculus with 117 samples.

Results

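Lacrimal glands of 15-week-old female mice were compared between NOD-scid (strain NOD.CB17-Prkdc scid/J, 4 mice) and C57BL/6-scid (strain B6.CB17-Prkdc scid/SzJ, called B6-scid here, 5 mice), with every probe set of the 3 Affymetrix array designs A, B and C. These are 9 of the 39 samples and 27 of the 117 arrays of a study that also covers pancreas and submandibular gland. Each sample came from 1 mouse and was hybridised to 1 array of each design, which together hold 36701 probe sets besides controls. Both strains carry the Prkdc scid allele, so mature T and B cells are missing from both and the strains differ in the rest of the NOD and C57BL/6 genomes. No wild-type or lymphocyte-bearing mice are among the samples, and the labels do not say which of the lacrimal glands of the orbit was taken.

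The lacrimal gland makes the watery layer of the tear film. Its acinar cells fold, glycosylate and package large amounts of secretory protein in the endoplasmic reticulum (ER) and Golgi, ducts modify the fluid, and myoepithelial cells squeeze the acini. NOD mice develop spontaneous inflammation of lacrimal and salivary glands and serve as a model of Sjögren's syndrome, and scid mice of that background let the gland be studied without lymphocytes. Cells show peptides to T cells on MHC class I molecules, whose light chain is B2m, and this presentation as well as many chemokines is driven by interferons and by the transcription factor NF-kappa-B.

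The samples carried lacrimal transcripts. All 7 lacrimal acinar markers (Bhlha15, Aqp5, Rab3d, Lpo, Ltf, Pigr and Chrm3) were present. Ltf, which encodes the tear protein lactoferrin, lay between 6010 and 14208 scaled signal units. Its group means in submandibular gland of the same age were 95 and 193. The markers other than Ltf do not set the glands apart. Their submandibular B6-scid and NOD-scid means were 49280 and 61404 for Lpo, 17723 and 12463 for Pigr, and 5454 and 8185 for Bhlha15. They were 3789 and 3819 for Aqp5, 3506 and 3053 for Rab3d, and 533 and 460 for Chrm3. The summed signal of all 7 markers was 107107 to 144652 in B6-scid and 169157 to 204803 in NOD-scid lacrimal glands, most of it from Lpo. The other 6 summed to 33804 to 66293 and 39981 to 48888, which overlapped. Signals are on a scale on which each array's trimmed mean is 500, and below they are always given in the order B6-scid replicates 1 to 5, then NOD-scid replicates 1 to 4. Of the markers of neighbouring tissues, the Harderian gland marker Scd3, the muscle marker Acta1 and the endothelial marker Cdh5 were below 100, the signal taken here as the lowest detectable, in all 9 samples. The muscle markers Ckm and Mylpf and the endothelial marker Pecam1 were above 100 in all 9, and the Harderian marker Elovl3 reached 258.4 in B6-scid replicate 3. The myoepithelial markers summed to 1313 to 1985 in B6-scid and 857.2 to 1043 in NOD-scid, and the macrophage markers to 518.5 to 1327 and 696.7 to 960.3.

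Some libraries stood apart. B6-scid replicates 2 and 3 carried very high parotid-type transcripts: Amy1 (salivary amylase) read 185011 and 181639 there and 37 to 111.2 in the other B6-scid glands, and Smr3a read 179935 and 195548 against 20.2 to 59.1. In these libraries 24 of the 36701 probe sets were over 10-fold above all other B6-scid glands. Bpifa2 (parotid secretory protein) read 160308 and 268248 there, 348 to 395 in the other B6-scid glands and 70.3 to 75.8 in NOD-scid glands, so it was lower in NOD-scid also without them (log2 difference -1.94, limma adjusted p = 0.00861). A further set of transcripts, abundant in submandibular gland, was high in all 5 B6-scid glands and in NOD-scid replicate 4 but low in NOD-scid replicates 1 to 3. Prol1 read 39542, 97806, 68382, 48480 and 46264, then 1507, 2043, 1259 and 76723, and the tissue kallikrein Klk1 read 2883, 20293, 6539, 2993 and 2444, then 310, 252, 326 and 3983. In NOD-scid replicate 4, 25 probe sets were over 10-fold above the other NOD-scid glands. The part of neighbouring salivary tissue in these values was not tested, so lacrimal strain differences are given with and without B6-scid replicates 2 and 3. The calls that did not pass without NOD-scid replicate 4 are named together further on.

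**Figure D1:**
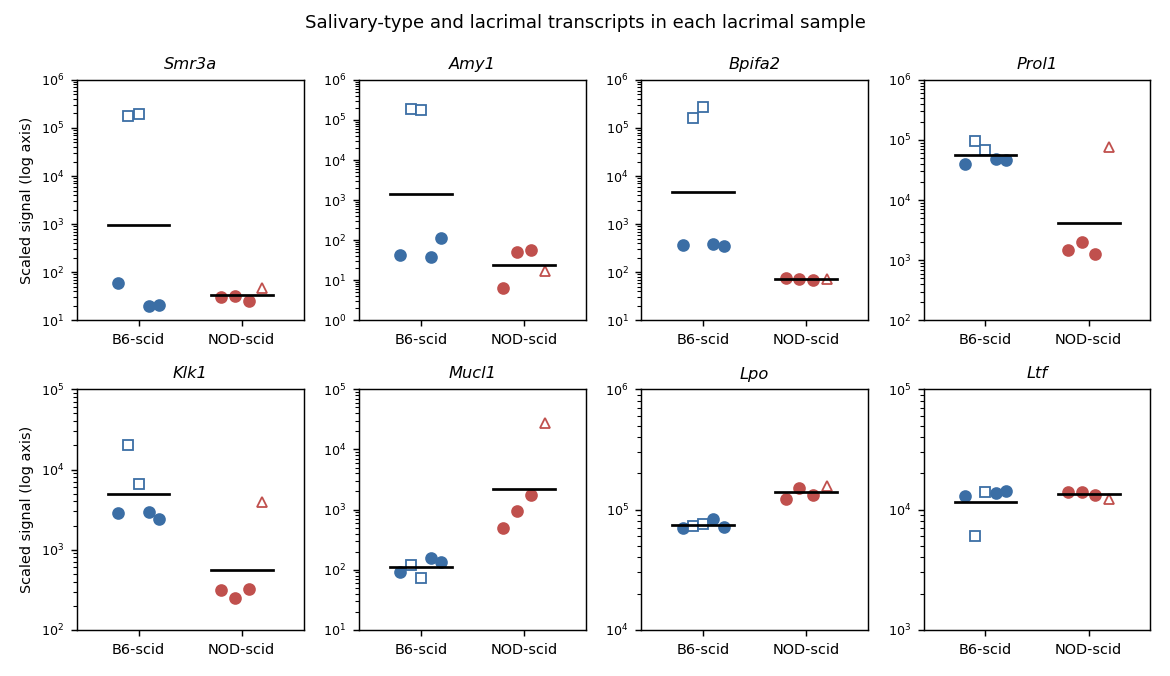
Scaled signal (log axes) of 8 transcripts in each lacrimal sample of B6-scid (blue, 5 mice) and NOD-scid (red, 4 mice), with the geometric mean as a bar; open squares are B6-scid replicates 2 and 3 and the open triangle is NOD-scid replicate 4. Smr3a, Amy1 and Bpifa2 are high in the open squares, Prol1 and Klk1 in all B6-scid glands and the open triangle, and Lpo is higher in every NOD-scid gland.

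Of 27686 probe sets tested, 265 (0.957%) passed the test of the strain difference at an adjusted p under 0.05 (limma, Benjamini-Hochberg). NOD-scid glands were higher at 116 of them (0.419%) and lower at 149 (0.538%), 260 differed at least 2-fold, and at none of the 265 did the strains overlap. Over all 27686 tested probe sets the strains did not overlap at 1964. The test itself favours such probe sets, so the lack of overlap among its calls is no further evidence. Without B6-scid replicates 2 and 3, 128 probe sets passed (0.462%; 59 higher, 69 lower), 98 of them shared with the 265, and all 265 kept their sign. Without NOD-scid replicate 4, 166 passed (0.6%; 58 higher, 108 lower), with 128 shared and again all 265 of the same sign. Counting 1 probe set per gene, 145 of 13524 genes (1.07%) passed, 62 higher (0.458%) and 83 lower (0.614%), and the median difference of all genes was 0.02 on the log2 scale. Of all genes 52.2% lay above 0. These shares are the background for the counts of every gene list below. With 5 and 4 mice a gene that did not pass is not shown to be equal in the strains, and at an unadjusted p under 0.05 there were 3802 probe sets.

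Genes for protein folding in the ER lay higher in NOD-scid glands. Of 49 tested genes for ER chaperones and the unfolded protein response, 5 rose and none fell, 41 lay above 0, and the median log2 difference was 0.55. Over all genes tested 0.458% were called higher and 52.2% lay above 0. The strains did not overlap at 18 genes of the list that were higher in NOD-scid and 1 that was lower, against 4.64% and 3.65% of all genes. The 5 that rose were Hspa5 (BiP, the main Hsp70 chaperone of the ER), Sdf2l1 (a BiP cofactor), Hyou1 (an ER exchange factor), Pdia4 (a disulfide isomerase) and Creld2 (an ER protein induced by stress). In the same NOD-scid glands the summed myoepithelial markers, mostly Acta2, were lower (857.2 to 1043 against 1313 to 1985). The sum of the acinar markers other than Lpo overlapped between strains. Of these markers Bhlha15 alone did not overlap (5072 to 7202 in B6-scid, 9006 to 13195 in NOD-scid). The part of both cell types in the result was not tested. In bulk tissue, fewer cells of a type and less RNA per cell cannot be told apart.

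The unfolded protein response raises chaperone genes through the ER stress response element, in which CCAAT and CCACG are spaced by 9 bases. This element (CCAAT, any 9 bases, then CCACG, on either strand) was searched for in the 250 bases before the start of each gene, from RefSeq promoters on GRCm38.p6. It was found in 37 of 32851 promoters (0.113%) and in 9 of the 41 ER-list genes with a promoter sequence (22%). Of the called genes it was found in Hspa5 and Creld2, while Sdf2l1 and Pdia4 had no match in this window. The promoters of both genes are shown because they are the called genes with a match, which is in capitals; Hspa5 lies at chr2:34771840-34772089 and Creld2 at chr15:88819396-88819645, both on the plus strand.
Hspa5: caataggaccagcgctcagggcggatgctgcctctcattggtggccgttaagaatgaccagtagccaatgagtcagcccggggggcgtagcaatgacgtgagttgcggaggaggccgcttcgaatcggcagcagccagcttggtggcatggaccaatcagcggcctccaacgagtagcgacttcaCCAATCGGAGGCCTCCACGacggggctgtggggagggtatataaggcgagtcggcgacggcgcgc
Creld2: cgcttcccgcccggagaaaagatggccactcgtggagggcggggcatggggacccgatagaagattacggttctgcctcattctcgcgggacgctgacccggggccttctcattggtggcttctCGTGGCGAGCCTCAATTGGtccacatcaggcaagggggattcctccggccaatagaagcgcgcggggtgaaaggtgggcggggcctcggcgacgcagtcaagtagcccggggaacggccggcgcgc
The match ended 47 bases before the start of Hspa5 and 108 bases before that of Creld2. A match describes the sequence only, and 7 of the 37 ER-list genes that were not called (18.9%) had one as well, among them Hsp90b1 with 2.

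Hspa5 read 8016, 9308, 7092, 8417 and 8482 in B6-scid and 21877, 16033, 20747 and 19608 in NOD-scid glands. Every NOD-scid gland was above every B6-scid gland, with a log2 difference of 1.24 ± 0.19 (SE; adjusted p = 0.0161). Creld2 read 623, 977, 500, 782 and 602, then 2935, 1856, 2982 and 1826, a log2 difference of 1.74 ± 0.26 (adjusted p = 0.0169). Sdf2l1 read 2034, 1838, 1634, 1789 and 2081, then 7058, 3874, 5109 and 5369. The B6-scid glands were close together and NOD-scid replicate 1 was the highest, with a difference of 1.47 ± 0.21 (adjusted p = 0.0147). Hyou1 read 2353, 3238, 2583, 3146 and 3882, then 7147, 6042, 8071 and 11004, a difference of 1.38 ± 0.24 (adjusted p = 0.0303). Pdia4 read 463, 388, 151, 303 and 316, then 1388, 805, 1208 and 965, a difference of 1.70 ± 0.31 (adjusted p = 0.0355). Again no B6-scid gland reached the lowest NOD-scid gland. Without B6-scid replicates 2 and 3, Creld2 alone of the 5 passed (adjusted p = 0.0483), with 1.76, while 0.518% of all genes passed; Hspa5 stood at 1.22 (adjusted p = 0.0637) and the median of the list at 0.52. Without NOD-scid replicate 4, Hspa5, Creld2 and Sdf2l1 passed, while 0.636% of all genes did, and without all 3 libraries none of the 49 genes passed, at a median of 0.53.

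Other members that are part of the same machinery did not pass. Dnajc3 (an Hsp40 partner of BiP) read 3080 to 4637 in B6-scid and 6661 to 8232 in NOD-scid, a difference of 0.97 with adjusted p = 0.0507. The ER Hsp90 gene Hsp90b1 read 2182 to 4240 and 5500 to 9460, a difference of 1.19 (adjusted p = 0.0808), and the mannosidase-like gene Edem3 differed by 1.09 (adjusted p = 0.0672). Neither gene overlapped between strains. Regulators of the response had other values: Xbp1, the transcription factor of the IRE1 arm, read 9013 to 13490 and 8028 to 11313 (difference -0.10, adjusted p = 0.882), and the kinase gene Eif2ak3 (PERK) read 541 to 835 and 222 to 384 (difference -0.94, adjusted p = 0.0953). The probe sets measure total Xbp1 RNA, not its spliced form. None of the 43 tested genes of the integrated stress response, which PERK feeds, passed (9 higher and 1 lower at an unadjusted p under 0.05, against 7.39% and 6.94% of all genes), and their median was 0.25.

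Genes for translocation, glycosylation and ER to Golgi transport had a positive median too, with 2 of 69 rising, none falling, 56 above 0 and a median of 0.34. The strains did not overlap at 25 members that were higher in NOD-scid and 1 that was lower, against 4.64% and 3.65% of all genes, of which 0.458% were called higher. Sar1b, the GTPase that starts COPII vesicle budding, read 1142, 1273, 1248, 1093 and 1216, then 3077, 4431, 4033 and 2944. The B6-scid values barely varied and all lay below a level that every NOD-scid gland passed, with a difference of 1.56 ± 0.20 (adjusted p = 0.00685). It passed also without B6-scid replicates 2 and 3 (1.61, adjusted p = 0.0402). Tram1, a translocon-associated membrane protein, read 10129, 11786, 9700, 8224 and 7912, then 18857, 19058, 19036 and 18117, a difference of 0.99 ± 0.19 (adjusted p = 0.0437; 0.0775 without B6-scid replicates 2 and 3). Outside the list and chosen after values were seen, the ER disulfide isomerase gene Agr2 (7512 to 9194, then 15259 to 19528; 1.07, adjusted p = 0.0278), the cargo receptor gene Tmed4 (1.09, adjusted p = 0.0364) and Svip, an inhibitor of ER-associated degradation (1.18, adjusted p = 0.039), also rose. Without B6-scid replicates 2 and 3 none of these passed (adjusted p = 0.116, 0.122 and 0.0761).

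**Figure D2:**
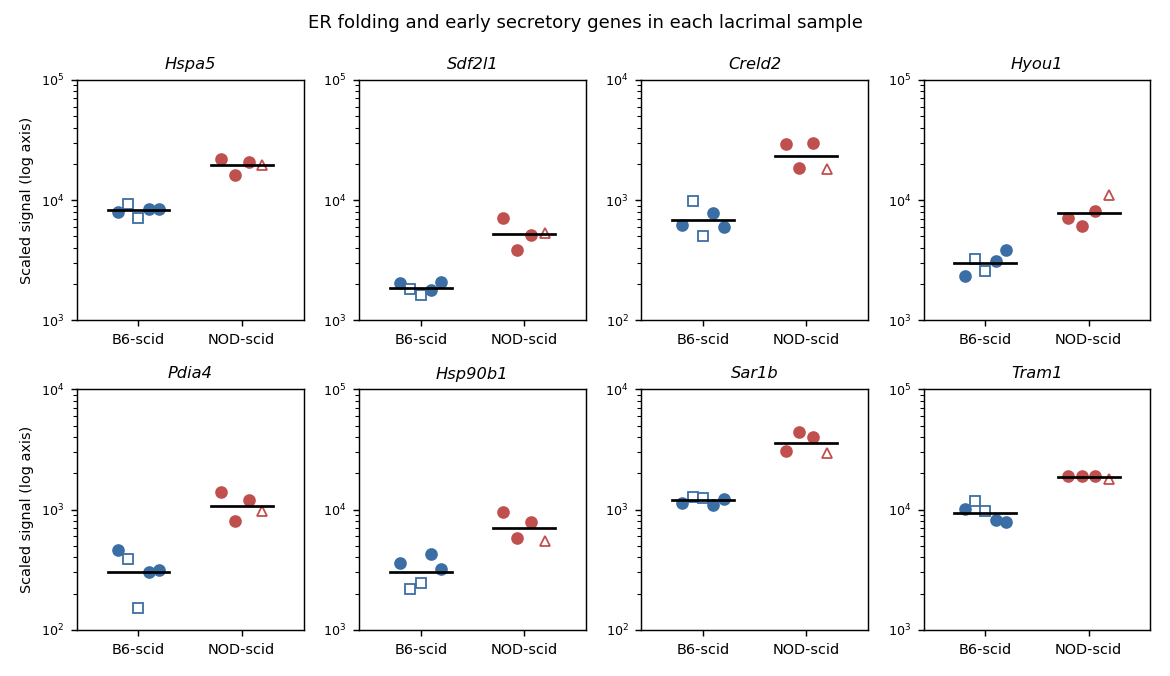
Scaled signal (log axes) of 8 ER folding and early secretory genes in each B6-scid (blue) and NOD-scid (red) lacrimal gland, bars at the geometric mean, open symbols for B6-scid replicates 2 and 3 (squares) and NOD-scid replicate 4 (triangle). In every panel all NOD-scid glands lie above all B6-scid glands; Hsp90b1 did not pass the test.

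MHC class I presentation genes lay lower in NOD-scid glands. Of 20 tested genes, 1 fell and none rose, 4 lay above 0, and the median log2 difference was -0.82. The strains did not overlap at 8 genes, all lower in NOD-scid, against 3.65% of all genes, of which 0.614% were called lower. B2m, the light chain that every class I molecule needs, read 4552, 12190, 6982, 4208 and 5080, then 1639, 1106, 1316 and 1151. B6-scid replicates 2 and 3 were the highest of all, and the lowest B6-scid gland was still above every NOD-scid gland. B2m differed by -2.21 ± 0.32 (adjusted p = 0.0148), and by -1.81 without B6-scid replicates 2 and 3 (adjusted p = 0.0251); the list then had a median of -0.78. The heavy chain gene H2-D1 passed on 1 probe set (5840, 15722, 9501, 6505 and 6124, then 2512, 2264, 2051 and 1616; -1.94 ± 0.32, adjusted p = 0.0228; 0.0402 without those replicates) and not on the probe set used for the list (-1.22, adjusted p = 0.0824). H2-Q4 stood at -1.62 (adjusted p = 0.0796), H2-K1 at -1.17, the immunoproteasome gene Psmb8 at -1.18 and the peptide transporter gene Tap1 at -0.99, none of which passed. Class I genes are near-identical copies and differ in sequence between these strains' H2 haplotypes, so probe sets of the heavy chains can cross-hybridise or lose signal, and their values are uncertain. H2-Q10 stood at 0.61, which did not pass either.

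The interferon response list had a negative median as well, with 1 of 38 falling, none rising, 4 above 0 and a median of -0.70 (-0.80 without B6-scid replicates 2 and 3). Over all genes 0.614% were called lower and 52.2% lay above 0. Trim25, a ubiquitin ligase that activates the RNA sensor RIG-I, fell: it read 513, 527, 508, 759 and 507, then 49.7, 37.4, 76.6 and 130. NOD-scid replicates 1 to 3 were below 100 and B6-scid replicate 4 was the highest, with a difference of -2.56 ± 0.27 (adjusted p = 0.00244; 0.029 without B6-scid replicates 2 and 3). Ifitm3 (an antiviral membrane protein) read 1506 to 3509 and 919 to 1408 (-1.10, adjusted p = 0.0997), and Isg15, a ubiquitin-like modifier, read 60.8 to 670 and 54.4 to 135 with overlap (-1.29, adjusted p = 0.36). Isg20 stood at 0.93 (adjusted p = 0.294).

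Of 29 tested chemokine and cytokine genes 3 fell and none rose, against 0.614% of all genes called lower, at a median of -0.15. Cxcl1, which draws neutrophils and is an NF-kappa-B target, read 292, 526, 496, 671 and 992, then 49.2, 21.6, 32.6 and 13. All NOD-scid values were below 100, and the difference was -3.30 ± 0.33 (adjusted p = 0.00156; 0.0253 without B6-scid replicates 2 and 3). A further Cxcl1 probe set fell too (-1.97, adjusted p = 0.047; 0.185 without those replicates). The mucosal chemokine gene Ccl28, which attracts IgA plasma cells, read 7557, 6810, 6609, 8446 and 6534, then 3719, 3081, 3282 and 2814 (-1.15 ± 0.18, adjusted p = 0.021). Cxcl17, a mucosal chemokine, read 2346, 2913, 4040, 4370 and 3906, then 1168, 1334, 1044 and 1658 (-1.40 ± 0.25, adjusted p = 0.0334). Its other, brighter probe set overlapped between strains and stood at -0.29 (adjusted p = 0.575). On the called probe sets the strains did not overlap, but without B6-scid replicates 2 and 3 Ccl28 and Cxcl17 no longer passed (adjusted p = 0.0736 and 0.122).

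Nfkbia, the inhibitor that holds NF-kappa-B in the cytoplasm and is itself an NF-kappa-B target, was chosen after its values were seen. It read 27197, 30037, 22352, 26032 and 33341, then 9850, 11234, 8357 and 10545, with no overlap and a difference of -1.47 ± 0.20 (adjusted p = 0.00976; 0.0396 without B6-scid replicates 2 and 3). Its other probe sets stood at -0.51 and -0.65 and did not pass. The NF-kappa-B consensus was found in 1281 of 32851 promoters (3.9%), in 5 of the 14 tested MHC class I genes with a promoter sequence (35.7%), and in those of Cxcl1 and Nfkbia; this search was also added after values were seen. B2m and H2-D1, which fell on a called probe set, carry a match as well. The promoters of Cxcl1 (chr5:90890995-90891244, plus strand) and Nfkbia (chr12:55492648-55492897, minus strand) are shown as examples of fallen genes with a match. The match is in capitals, and both promoters come from RefSeq on GRCm38.p6.
Cxcl1: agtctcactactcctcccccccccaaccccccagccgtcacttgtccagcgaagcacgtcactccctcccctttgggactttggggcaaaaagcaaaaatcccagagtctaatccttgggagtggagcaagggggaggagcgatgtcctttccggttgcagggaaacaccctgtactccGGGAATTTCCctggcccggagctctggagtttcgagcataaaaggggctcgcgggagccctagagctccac
Nfkbia: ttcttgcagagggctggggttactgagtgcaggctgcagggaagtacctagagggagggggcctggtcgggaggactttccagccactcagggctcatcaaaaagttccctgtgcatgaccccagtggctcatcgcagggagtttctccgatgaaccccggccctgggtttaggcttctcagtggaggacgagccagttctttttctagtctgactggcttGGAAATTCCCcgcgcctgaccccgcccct
The match began 71 bases before the start of Cxcl1 and 29 bases before that of Nfkbia. The adhesion molecules Vcam1 (-1.23, adjusted p = 0.0391) and Ceacam1 (-1.70, adjusted p = 0.00336), likewise chosen after their values were seen, also fell, Ceacam1 also without B6-scid replicates 2 and 3 (adjusted p = 0.0182) and Vcam1 not (0.17). Rela, a subunit of NF-kappa-B, rose on 1 probe set at low signal (23.8 to 143, then 216 to 759; 2.35, adjusted p = 0.0431), while its other probe sets stood at -0.75 and -0.32.

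**Figure D3:**
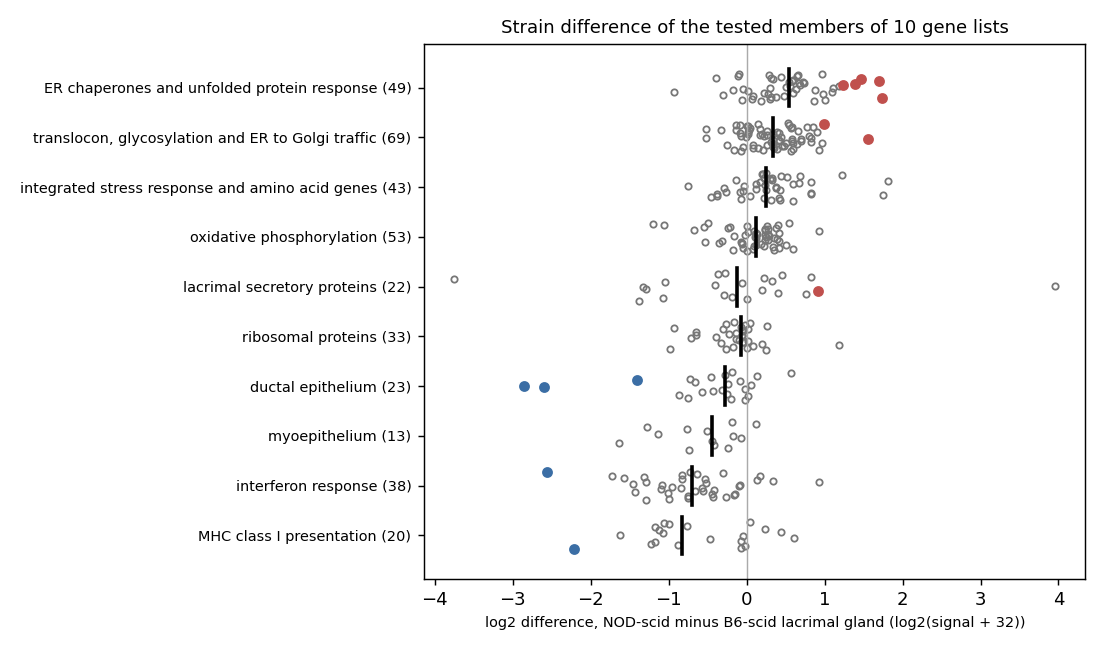
log2 difference between NOD-scid and B6-scid lacrimal gland of each tested member (points) of 10 gene lists, with the number tested in brackets and the median as a bar; filled points passed the test (red higher, blue lower in NOD-scid). Medians run from 0.55 for ER chaperones to -0.82 for MHC class I presentation.

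Of 23 tested ductal epithelium genes 3 fell, none rose, 4 lay above 0 and the median was -0.28. Over all genes 0.614% were called lower and 52.2% lay above 0. Fxyd3, a regulator of the sodium pump, read 7561, 6294, 7214, 5980 and 5820, then 1030, 766, 1002 and 751. Both strains were tight and far apart, with -2.85 ± 0.20 (adjusted p = 0.000199; 0.00547 without B6-scid replicates 2 and 3). Fxyd2, the sodium pump's gamma subunit, read 398, 1365, 1122, 404 and 322, then 31.5, 142, 59.7 and 89.8 (-2.60 ± 0.48, adjusted p = 0.0375). Its highest values were in B6-scid replicates 2 and 3, and without them it stood at -1.94 (adjusted p = 0.0832). The duct keratin gene Krt7 read 250, 352, 348, 268 and 236, then 69.5, 154, 65.7 and 82.6 (-1.40 ± 0.25, adjusted p = 0.0325; 0.15 without those replicates). The keratins of simple epithelia did not pass, with Krt8 at -0.72 and Krt18 at -0.67. The tight junction gene Cldn8, chosen after its values were seen, fell on 1 probe set (1936 to 2710, then 919 to 1432; -1.07, adjusted p = 0.0443). Its other probe sets stood at -0.29 and -0.56, overlapped between strains and did not pass.

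None of 13 tested myoepithelial genes passed, though 12 lay below 0 and the median was -0.45. Smooth muscle actin (Acta2) read 1180 to 1879 in B6-scid and 740 to 822 in NOD-scid (-0.74, adjusted p = 0.137; none higher and 5 lower at an unadjusted p under 0.05 in the list), Tagln stood at -1.27 and the myosin gene Myh11 at -1.14. Acta2 and Myh11 did not overlap between strains, while Tagln did. The defining basal keratin genes Krt5 and Krt14 were at low signal in both strains.

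Among 22 tested lacrimal secretory proteins, 1 rose and the median was -0.13. Lpo, the antibacterial enzyme lactoperoxidase, read 69664, 73303, 76263, 84002 and 71684, then 123160, 152215, 133282 and 157084. No values overlapped and the difference was 0.91 ± 0.18 (adjusted p = 0.0465), but it did not pass without B6-scid replicates 2 and 3 (0.91, adjusted p = 0.15). The lipocalin gene Lcn11 was among the brightest transcripts, at 117665 to 143830 and 189539 to 242952 (0.76, adjusted p = 0.0902). Ltf read 12915, 6010, 13941, 13748 and 14208, then 14009, 13938, 13344 and 12217, with B6-scid replicate 2 alone low, and did not differ beyond its spread (adjusted p = 0.804). Pigr, the transporter of IgA into tears, read 29340, 11899, 31862, 33117 and 39307, then 14376, 13535, 9486 and 15943 (-1.04, adjusted p = 0.226), with B6-scid replicate 2 again low. Without B6-scid replicates 2 and 3 it stood at -1.36 (adjusted p = 0.0876). Car6, a secreted carbonic anhydrase, read 44782, 118132, 129871, 48028 and 49775, then 36310, 21245, 22911 and 29325 (-1.38, adjusted p = 0.148), and -0.82 without those replicates. The mucin-like gene Mucl1 read 72.4 to 159, then 492, 948, 1772 and 27685 (adjusted p = 0.0985), and stood at 2.75 without NOD-scid replicate 4 (adjusted p = 0.0238). Lcn11, Car6 and Mucl1 did not overlap between strains, and Ltf and Pigr did.

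Acinar identity and exocytosis genes were spread around 0 (median -0.04 over 34), with 1 higher and 1 lower. Pam, which amidates secreted peptides, read 198, 580, 202, 385 and 325, then 5047, 4786, 3510 and 3413, a difference of 3.59 ± 0.32 (adjusted p = 0.000765). Rab26, a GTPase of acinar secretory granules, fell at the edge of the threshold (958, 1266, 741, 908 and 909, then 463, 150, 281 and 396; -1.56, adjusted p = 0.0496; 0.17 without B6-scid replicates 2 and 3). The acinar transcription factor gene Bhlha15 (Mist1) read 5072 to 7202 and 9006 to 13195 (0.86, adjusted p = 0.0871), and the water channel gene Aqp5 read 1917 to 3160 and 2021 to 2903 (0.18, adjusted p = 0.769). The potassium channel gene Kcnn4 stood at -1.97 (adjusted p = 0.0655). The calcium release channel gene Itpr2 stood at -1.04 (adjusted p = 0.0733), with both of its other probe sets at -0.04. Pnliprp1, a lipase-related protein on the pancreas list, rose (24218, 9387, 18501, 14358 and 10256, then 50593, 55402, 37456 and 42724; 1.67 ± 0.30, adjusted p = 0.0369; 0.119 without those replicates).

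Of 31 genes of cholesterol synthesis and handling 3 fell and none rose, against 0.614% of all genes called lower. In this list 17 lay above 0 and the median was 0.03. Abca1, the cholesterol efflux pump, read 730, 830, 623, 645 and 761, then 184, 283, 240 and 195 (-1.55 ± 0.20, adjusted p = 0.00712; 0.0402 without B6-scid replicates 2 and 3). Apod, a lipid-binding lipocalin, read 1080, 1043, 1401, 1199 and 860, then 447, 402, 396 and 342 (-1.41 ± 0.20, adjusted p = 0.0127), and Apoe read 3965, 3403, 5397, 4373 and 3011, then 1789, 1849, 1742 and 996 (-1.33 ± 0.26, adjusted p = 0.0475). The strains did not overlap in any of these, but other probe sets of the same genes stood at 0.07 (Abca1), 0.30 (Apod) and 0.09 (Apoe) and did not pass. Without B6-scid replicates 2 and 3, Apod and Apoe no longer passed (adjusted p = 0.0602 and 0.167). Hmgcs1, which starts sterol synthesis, stood at 1.12 (adjusted p = 0.117) and Fdps at 0.80 (adjusted p = 0.202). Of 42 fatty acid and triglyceride genes 1 fell, the desaturase gene Scd1 (2029, 2273, 4380, 4163 and 3738, then 1095, 1013, 1298 and 1078; -1.48 ± 0.27, adjusted p = 0.0397; 0.106 without those replicates).

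Few genes of the immune cells that scid mice keep passed, while of all genes 0.458% were called higher and 0.614% lower. Of 21 macrophage genes 1 fell: Tyrobp (DAP12, a myeloid signalling adaptor) read 372, 406, 488, 370 and 401, then 112, 182, 155 and 116 (-1.36 ± 0.20, adjusted p = 0.0149; 0.0775 without B6-scid replicates 2 and 3). The macrophage markers Csf1r, Adgre1 and Cd68 are given above as a sum, which overlapped between strains, and the efferocytosis receptor gene Mertk stood at -1.43 (adjusted p = 0.0697). Of 17 MHC class II genes 1 fell, Ctss, the cathepsin that trims the invariant chain (2266, 1640, 2851, 2613 and 2014, then 802, 572, 677 and 559; -1.74 ± 0.22, adjusted p = 0.00761; 0.0273 without those replicates). None of the tested dendritic cell (11), NK cell (8), T cell (8), B and plasma cell (17), neutrophil (10) or complement (20) genes passed; at an unadjusted p under 0.05 these lists had 0 to 3 members higher and 0 to 2 lower.

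Ctsc, the cathepsin that activates granule proteases, fell on 2 probe sets (1536, 1213, 1004, 1520 and 1413, then 67.5, 41.3, 27.3 and 131 on the stronger; -3.88 ± 0.30, adjusted p = 0.000452), while the probe set used for the lysosome list stood at 0.68 (adjusted p = 0.257). Its probe sets thus disagree in direction. Among 44 extracellular matrix genes 2 fell, against 0.614% of all genes called lower. The basement membrane gene Nid2 read 93.5 to 286, then 2.4 to 5.3 (-2.28, adjusted p = 0.00506). The matrix protease gene Mmp3 read 168 to 522, then 9.8 to 84.4 (-2.13, adjusted p = 0.0336, and 0.0586 without B6-scid replicates 2 and 3). Gadd45b, a stress-induced regulator of growth and apoptosis, rose (102, 175, 114, 61.1 and 151, then 380, 531, 481 and 598; 1.83, adjusted p = 0.0147). The glutathione transferase gene Gsto1 fell (-1.42, adjusted p = 0.0388), and the lipid peroxide reductase gene Gpx4 stood at -0.81 with tight strains (1650 to 1985, then 1021 to 1096; adjusted p = 0.0608). Pla2g12a, a secreted phospholipase gene, fell (12740, 25370, 20146, 10136 and 9936, then 3874, 5195, 4693 and 4611; -1.67, adjusted p = 0.039; 0.0714 without those replicates).

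**Figure D4:**
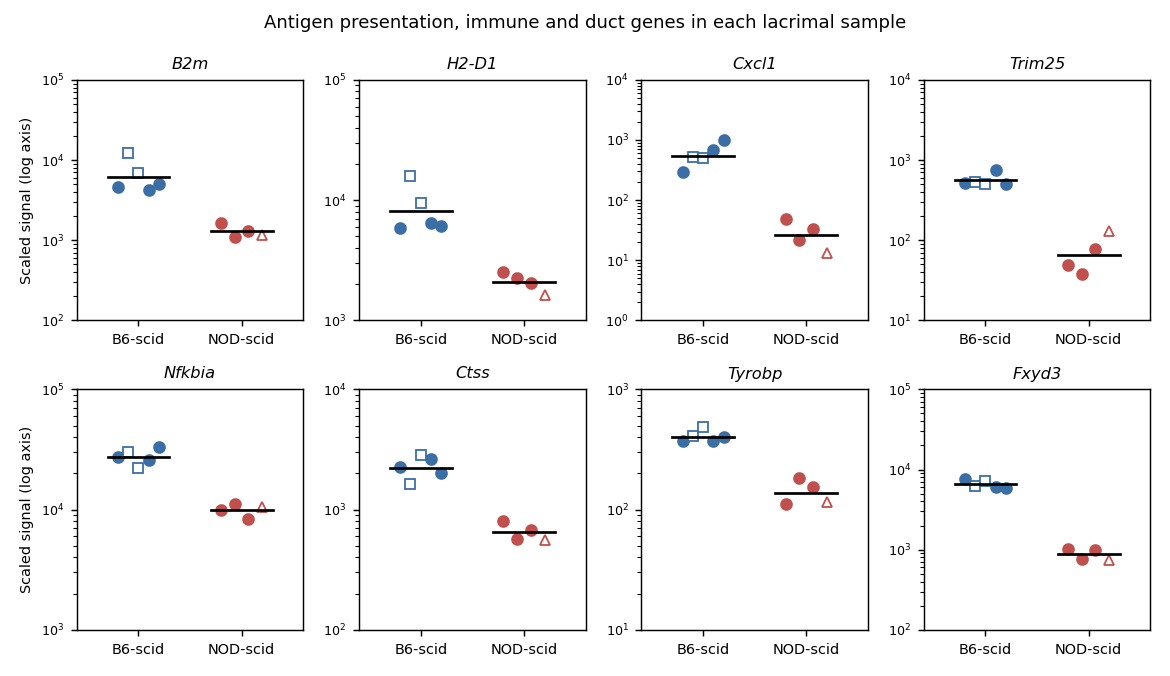
Scaled signal (log axes) of 8 genes that were lower in NOD-scid (red) than in B6-scid (blue) lacrimal gland, each point 1 mouse, bars at the geometric mean, open symbols for B6-scid replicates 2 and 3 (squares) and NOD-scid replicate 4 (triangle). The strains do not overlap in any panel; B2m and H2-D1 are highest in the open squares, and Nfkbia is shown for the probe set that passed.

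The strains were farthest apart at single genes. Ly6e, a GPI-anchored protein of the Ly6 family, read 33699, 39052, 66692, 34796 and 43776, then 439, 245, 498 and 98.1. A bright signal in every B6-scid gland was thus below the array's trimmed mean of 500 in every NOD-scid gland, with -7.10 ± 0.41 (adjusted p = 6.15e-05). Another of its probe sets also fell (-1.89, adjusted p = 0.0189), to 414 in the lowest NOD-scid gland. BC018473 read 72.3 to 324 in B6-scid, then 21948, 20402, 14519 and 16994 (6.43 ± 0.37, adjusted p = 6.15e-05). The probe set named for Notch4, an endothelial Notch receptor, read 51.2, 162, 301, 233 and 357, then 7903, 5771, 4840 and 5066 (4.70 ± 0.42, adjusted p = 0.000842), while none of the other endothelial genes tested passed. Fbp1, the gluconeogenic fructose bisphosphatase, read 55.7, 21.9, 70.2, 43.7 and 19.4, then 643, 798, 828 and 787 (3.47 ± 0.25, adjusted p = 0.000287). It was below the detection level in all B6-scid glands.

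Of 23 circadian genes 1 passed, Noct, the clock-controlled enzyme nocturnin, which fell (7061, 12076, 6845, 7614 and 8043, then 1005, 1447, 917 and 1191; -2.82 ± 0.24, adjusted p = 0.000586). Rpgrip1 (1289 to 1702, then 104 to 174; -3.18), Agpat5, an acyltransferase of phospholipid synthesis (2700 to 4317, then 473 to 842; -2.41), Gramd3 (-2.78), Zfp874a (-2.71), the noncoding RNA Snhg6 (-2.57), 2310001H17Rik (-3.05), D17H6S56E-5 (-3.38) and the pleckstrin-like gene Phlda1 (-2.45) also fell. Timmdc1, a complex I assembly factor (3.35), 1600014C10Rik (3.48), the desaturase family gene Fads6 (3.16), Mug-ps1 (3.08) and its relative Mug1 (1.95), BC051019 (2.94), the vesicular nucleotide transporter gene Slc17a9 (2.44), the sorting nexin gene Snx20 (2.23), the semaphorin receptor gene Plxnd1 (2.10) and Krt24 (1.88) rose. All of these passed also without B6-scid replicates 2 and 3. AI506816 was called in opposite directions by its probe sets (2.47 and -2.02), as was Pisd-ps3 (2.56 and -1.51), so no direction is given for either gene. A base that differs between the strains under a probe set changes its signal without a change in RNA, and this was not tested. Other probe sets that did not pass include those of Notch4 (0.25 and -0.18), Noct (0.49), Rpgrip1 (1.10 and 0.00), Agpat5 (0.12 and -0.08) and Pla2g12a (-0.16). They also include those of BC051019 (-0.58), 2310001H17Rik (0.45 and -1.79), D17H6S56E-5 (-0.13) and 1600014C10Rik (0.76). Of 112 called genes with several tested probe sets, 6 had 2 or more called, and 118 of the 194 other probe sets had the same sign. Of the strain markers listed, Pigv also fell (-1.43, adjusted p = 0.0289), the restriction factor gene Apobec3 fell on 1 probe set (-2.26, adjusted p = 0.0337), and Nnt, part of which is deleted in C57BL/6J mice, stood at 0.97 (adjusted p = 0.264).

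Further genes chosen after their values were seen included bright gland transcripts. Cyp2f2, a xenobiotic-metabolising enzyme, read 9780 to 16290 and 2482 to 4378 (-1.95, adjusted p = 0.00602), and Otof, whose protein otoferlin serves vesicle fusion, read 12821 to 21958 and 3816 to 5185 (-1.83, adjusted p = 0.00474). Azgp1, a secreted zinc-binding glycoprotein, read 616 to 1137 and 210 to 277 (-1.75, adjusted p = 0.0119). All 3 fell without overlap and also passed without B6-scid replicates 2 and 3. The hemoglobin genes Hba-a1 (2201 to 4698, then 6027 to 8200; 1.36, adjusted p = 0.0411) and Hbb-b2 (1.30, adjusted p = 0.0443) rose.

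Some calls were lost or gained without B6-scid replicates 2 and 3, which also leaves fewer mice. The xenobiotic hydrolase gene Ephx1 (-2.70), E330020D12Rik (-2.53), Wdr36 (-2.36) and Uck1 (-2.31) fell with all 9 samples and Cib1 (3.05), Madd (2.77), Pafah2 (2.66) and Ly6g2 (2.46) rose, but none of these passed without the pair. Each difference kept its sign without the pair, and some hardly moved, with Ephx1 at -2.42 (adjusted p = 0.102), Madd at 2.71 (0.0627) and E330020D12Rik at -2.59 (0.0636). In turn 4933427D14Rik, Slfn2, Cblc and Psmd1 did not pass with all 9 samples and passed as lower without the pair, and Pde3b, Calml4, Clpb and Zmynd12 likewise as higher. Slfn2, for example, read 53.5 in B6-scid replicate 2 and 579 to 1155 in the others, against 86.8 to 178 in NOD-scid (-1.80 with all samples, adjusted p = 0.282; -2.61 without the pair, adjusted p = 0.0179). Also not passing without the pair were Vcam1, Rela, Gsto1 (adjusted p = 0.15), Cldn8 (0.106) and the other probe set of Ly6e (0.0547).

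Without NOD-scid replicate 4, which leaves 3 NOD-scid mice, a number of the named genes no longer passed although each kept its sign. Among those higher in NOD-scid these were Hyou1 (adjusted p = 0.0718), Pdia4 (0.0767), Tram1 (0.0967), Agr2 (0.0767), Tmed4, Svip, Lpo (0.119), Pnliprp1 (0.0814), Rela, Mug1 (0.0742), Krt24 (0.0537), Ly6g2, Pafah2, Hba-a1 (0.107) and Hbb-b2 (0.111). Among those lower these were H2-D1 (0.0663), the further Cxcl1 probe set (0.118), Ccl28 (0.0628), Vcam1, Krt7 (0.083), Fxyd2 (0.0814), Rab26 (0.0767), Apoe (0.097), Scd1 (0.0981), Mmp3, Gsto1, Pla2g12a, Phlda1 (0.0536), D17H6S56E-5 (0.067), Pigv (0.0769), Apobec3 (0.0536) and Uck1. In contrast Cldn8 (0.0442), Cxcl17 (0.0468), B2m (0.0442), Tyrobp (0.0448) and Gadd45b (0.0434) still passed.

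Whether the strain difference of the lacrimal gland differs from that of the submandibular gland at 15 weeks (5 mice per strain) was tested as an interaction over 19 samples. The labels do not say whether same-numbered glands of a strain came from 1 mouse, and this fit did not pair them. Of 31441 probe sets 90 passed (0.286%), and of the 265 lacrimal calls 53 passed this test too. B2m had an interaction of -2.82 ± 0.43 (adjusted p = 0.00335): it read 4968 to 11918 in B6-scid and 9532 to 16718 in NOD-scid submandibular gland, so it was not lower in NOD-scid there. Of the 20 MHC class I genes 4 passed the interaction, B2m, H2-Q4 (-2.01), H2-Q5 (-1.59) and H2-D1 on the list's probe set (-1.50, adjusted p = 0.0494), against 0.333% of all genes. These interactions are from all 19 samples and are not given without B6-scid lacrimal replicates 2 and 3. Among the B6-scid lacrimal glands, B2m (12190 and 6982) and this H2-D1 probe set (13796 and 9359) were highest in those replicates. Agr2 read 283.8 to 542.5 and 34.8 to 130.7 in submandibular gland, with the lower values in NOD-scid (interaction 3.00 ± 0.32, adjusted p = 0.000193). Sdf2l1 (1.62, adjusted p = 0.0189) and Sar1b (1.46, adjusted p = 0.00783) passed as well, whereas Hspa5 did not (1.17, adjusted p = 0.169). Fxyd3 was lower in NOD-scid in both glands and more so in the lacrimal gland (-1.65, adjusted p = 0.00511), and Noct likewise differed more there (-2.23, adjusted p = 0.00121). Cxcl17 was at 5416 to 6521 and 5725 to 12342 in submandibular gland (-1.85, adjusted p = 0.0172). On its other probe set the interaction was -0.37 and did not pass (adjusted p = 0.807). The Cxcl1 difference between glands did not pass (-2.50, adjusted p = 0.122). Pam, Fbp1, Rpgrip1, Timmdc1 and Agpat5 differed between strains in both glands, with submandibular differences of 2.84, 4.20, -3.37, 3.04 and -2.32. Of the 265 lacrimal calls, 66 were also called in submandibular gland, 64 of them in the same direction. The share of all tested probe sets called in submandibular gland was not counted, so whether 66 exceeds that share is not shown.

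**Figure D5:**
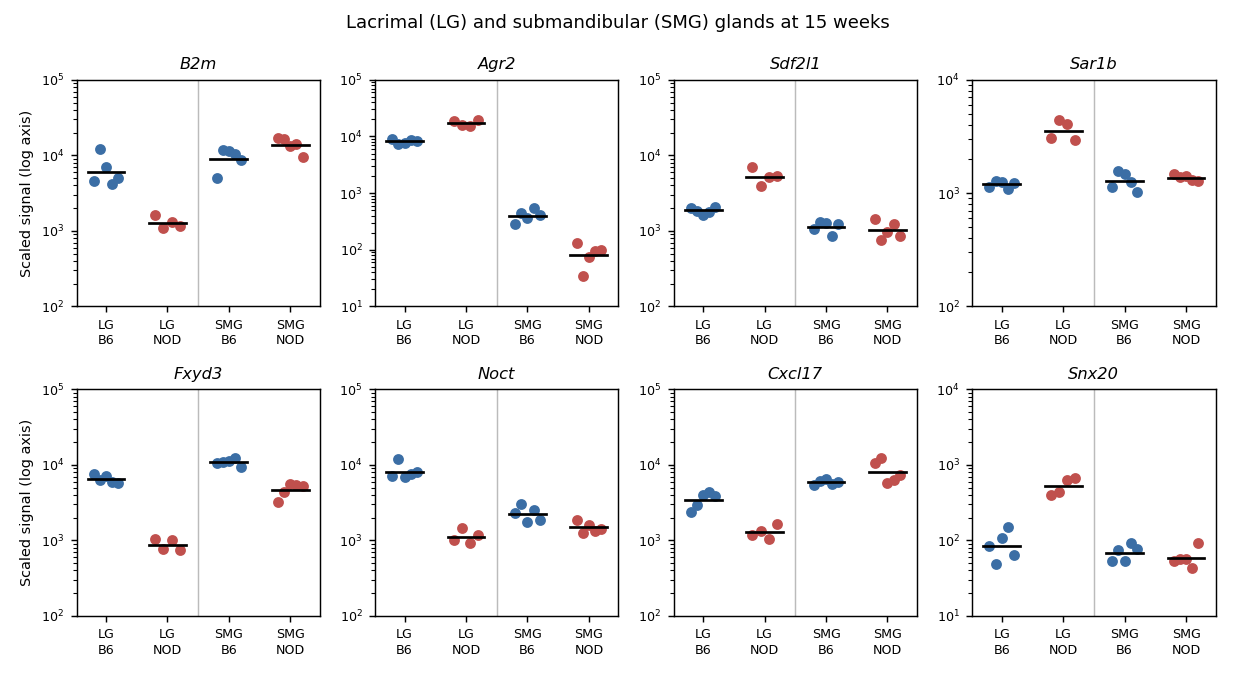
Scaled signal (log axes) of 8 genes in lacrimal (LG) and submandibular (SMG) glands of B6-scid (blue) and NOD-scid (red) mice at 15 weeks; points are mice (4 to 5 per group) and bars geometric means. NOD-scid lies below B6-scid for B2m and Cxcl17 in the lacrimal gland only, and Agr2 is higher in NOD-scid in the lacrimal and lower in the submandibular gland. Cxcl17 is shown for the probe set that passed.

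The remaining lists gave few calls. None of 53 oxidative phosphorylation genes (median 0.13), 33 ribosomal protein genes (median -0.07), 28 proliferation genes (0.09), 24 mucin glycosylation genes, 15 adipocyte, 17 skeletal muscle, 13 nerve or 3 lymph node stroma genes passed; at an unadjusted p under 0.05 these lists had 0 to 4 members in each direction. The 13 tested submandibular granular duct genes had no call with all 9 samples (none higher and 4 lower at an unadjusted p under 0.05) and a median of -0.91. Without NOD-scid replicate 4, 4 of them were lower at a median of -1.52, among them Klk1 (-3.92, adjusted p = 0.0402) and Klk1b22 (-3.09, adjusted p = 0.0463), the kallikreins whose levels in NOD-scid replicate 4 are given above, and Prol1 then differed by -5.15 (adjusted p = 0.000466). The salivary list of 14 had 1 call, Lpo, which it shares with the lacrimal list, and a median of -0.98 that became -0.28 without B6-scid replicates 2 and 3.

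The ratio of 3' to 5' signal of Actb was 1.45 to 2.43 in B6-scid and 1.69 to 2.04 in NOD-scid glands (exact permutation test over samples, two-sided p = 0.802), and that of Gapdh 0.79 to 0.951 and 0.687 to 0.861 (p = 0.159, exact permutation test).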

How the data were processed

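Total RNA of lacrimal glands was labelled as biotinylated cRNA and hybridised to MG-U74v2 arrays, per the labels. Values are MAS5 signal intensities, deposited by the authors on a linear scale; MAS5 is named in the submitters' processing notes, its version and settings are not given in the sources used here. Each array was rescaled to a trimmed mean of 500 (2% off each end). Probe sets at 100 or more on at least 4 of the 9 arrays were tested on log2(signal + 32) with limma 3.58.1 in R 4.3.3 (lmFit, eBayes, NOD-scid minus B6-scid), with Benjamini-Hochberg adjustment over all designs and calls at adjusted p under 0.05. Errors on log2 differences are standard errors, and the fold scale understates low genes. Intensities carry no read depth; array number limits precision. Of 36701 probe sets 29131 had 1 gene symbol, 724 several and 6846 none. Each listed gene is represented by its brightest probe set on the earliest design that holds it, and 1114 of 1316 symbols in 40 lists had one. Named genes are the largest changes that remain without B6-scid replicates 2 and 3, called list members, up to 4 further members per list, calls lost or gained without that pair, and genes marked as chosen after their values were seen. Members and lists were chosen with earlier results of these data known. Alternatives varied the pseudocount, filter, normalization, variance prior, covariates and samples.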

Additional observations from a re-analysis of the deposited data

Results flagged for a closer look

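In 17 of 286 groups of values examined (5.94%), 1 mouse stood far from the rest of its strain, by the ratio of its gap to the range (critical value 0.829 for 4 mice and 0.710 for 5); chance marks about 1 in 20 groups. NOD-scid replicate 4 was high for the submandibular-type transcripts Prol1 (76723 against at most 2043 in the other NOD-scid glands, ratio 0.884), Klk1 (3983 against 326, ratio 0.913) and the kallikrein gene Klk1b16 (3436 against 98.8, ratio 0.871). It was low for Psmb8 (68.7, next 172, ratio 0.874), Apoe (996, next 1742, ratio 0.903), AI506816 (280, next 506, ratio 0.843) and the dimmer Ly6e probe set (414, next 772, ratio 0.918). B6-scid replicate 2 was low for the tear protein genes Ltf (6010, next 12915, ratio 0.889) and Pigr (11899, next 29340, ratio 0.755) and for Slfn2 (53.5, next 579, ratio 0.747). It was high for Aqp5 (3160, next 2112, ratio 0.807), Noct (12076, next 8043, ratio 0.716) and Clpb (302, next 54.3, ratio 0.797). B6-scid replicate 4 was high for Trim25 (759, next 527, ratio 0.906) and Acta2 (1879, next 1284, ratio 0.818), NOD-scid replicate 3 was high for 4933427D14Rik (213, next 108, ratio 0.835), and NOD-scid replicate 2 was low for Hbb-b2 (1218, next 1735, ratio 0.865).

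At 23 of 141 named probe sets the strain difference itself differed between lacrimal and submandibular gland (limma interaction, adjusted p under 0.05). Of all 31441 probe sets in this test 90 (0.286%) did. Many named probe sets were chosen for a large lacrimal difference, so their higher share is no further evidence. All 19 samples were used, B6-scid lacrimal replicates 2 and 3 among them. Values are lacrimal minus submandibular log2 differences. The interaction was positive for Notch4 (4.24; 4.70 in lacrimal and 0.46 in submandibular gland), BC018473 (3.83; 6.43 and 2.60), Agr2 (3.00; 1.07 and -1.93), BC051019 (2.81), Mug-ps1 (2.69), Fads6 (2.44), Snx20 (2.38), Ly6g2 (2.34), Sdf2l1 (1.62) and Sar1b (1.46). For Pigv it was 2.17, since Pigv was lower in NOD-scid in both glands and more so in the submandibular gland (-1.43 and -3.60). It was negative for Ly6e (-4.87; -7.10 and -2.23), E330020D12Rik (-2.84), B2m (-2.82; -2.21 and 0.61), H2-D1 (-2.52 on 1 probe set and -1.50 on the other), 2310001H17Rik (-2.49), Ephx1 (-2.36), Noct (-2.23), H2-Q4 (-2.01), Cxcl17 (-1.85), Fxyd3 (-1.65) and H2-Q5 (-1.59).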

How the results depend on the processing

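With all 9 samples 265 probe sets were called (116 higher, 149 lower). Leaving out B6-scid replicates 2 and 3 gave 128 (59 and 69). It was 111 (59 and 52) with the signal filter also set on the 7 samples left, 67 (25 and 42) without NOD-scid replicate 4 as well, 96 (44 and 52) with the salivary signal as a covariate, 516 (252 and 264) with a trended robust prior and 727 (294 and 433) with all 39 samples in the fit. Leaving out 1 mouse at a time gave 130 to 195 calls (43 to 83 higher, 83 to 112 lower) and 61 to 109 for the interaction, against 90. With the replicate number as a replicate block across strains 11 probe sets passed (6 and 5). For the interaction the block was another one, joining lacrimal and submandibular samples of the same strain and number, and 36 passed. The deviations of same-numbered mice correlated at -0.004 to 0.049. Of the 4 NOD-scid mice, 3 matched best the B6-scid mouse of their own number. The labels do not say whether the numbers pair mice of the strains, and correlations this small do not decide it. They also do not say whether same-numbered glands of a strain came from 1 mouse. Fits without those libraries and with the filter on 7 samples were chosen after seeing the data. Of 85 named probe sets that passed, none reversed and 77 missed the threshold in at least 1 of 24 alternatives; the 8 others were those of BC018473, Fbp1, Timmdc1, Ly6e, Ctsc, Rpgrip1, Fxyd3 and Noct. Among named probe sets that did not pass, Ltf (0.20) ranged, with 1 mouse left out, from -0.04 without B6-scid replicate 2 to 0.27 without replicate 3, and was -0.03 without replicates 2 and 3 under both filters and -0.07 with the covariate, and Xbp1 (-0.10) ranged, with 1 mouse left out, from -0.17 without NOD-scid replicate 2 to 0.00 without B6-scid replicate 1, and was -0.20 with the covariate; the cause was not tested. Signal near background limits values under 100.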
